A study of Homo sapiens with 2 samples.

Results

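The transcription cofactors YAP (gene YAP1) and TAZ (gene WWTR1), 2 of the TEAD DNA-binding factors through which they act (TEAD1 and TEAD4) and 6 of their usual target genes (CCN1, CCN2, ANKRD1, AMOTL2, LATS2 and AXL) were examined by RNA sequencing. These 10 genes were chosen by name, and all 10 were found among the 25534 genes listed. The cells were HN6, a cell line from a human squamous cell carcinoma of the tongue. In 1 library the cells had received a ZNF582 plasmid and were labelled as overexpressing this gene, and in the other they were labelled wild type and control. These are called ZNF582 cells and control cells. ZNF582 is a zinc finger protein of the KRAB class, whose members usually recruit transcriptional corepressors. The labels do not say whether the control cells received an empty vector, how long after transfection the cells were taken, or whether the transfected cells were a pool or a clone.

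YAP and TAZ are the effectors of the Hippo pathway. When the kinases LATS1 and LATS2 are active they phosphorylate YAP and TAZ, which are then held in the cytoplasm or degraded, and when the kinases are inactive YAP and TAZ enter the nucleus and bind TEAD factors at promoters and enhancers. In squamous carcinomas the pathway is known for its links to growth, matrix stiffness and cell density. Because YAP and TAZ are controlled mainly by phosphorylation, their mRNA levels do not report their activity, and target genes are commonly read for that purpose.

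The ZNF582 library held 17792172 counts and the control library 14765244. ZNF582 itself had 277387 counts in ZNF582 cells and 14 in control cells, as their labels state, and took 1.56% of all counts in the ZNF582 library. Each group had 1 library, so no difference below has a replicate check, none was tested, and each interval is a 95% interval of counting error only. The 2-fold rule called a gene higher or lower where the libraries differed at least 2-fold and this interval excluded 1. Of 16669 genes whose counts summed to 20 or more, 4.25% were higher and 5.02% lower, and the median log2 fold was -0.01. The log2 fold is that of scaled counts, ZNF582 over control, so a positive value means higher in ZNF582 cells. Scaling used library totals with TMM factors, which align the bulk of genes. FPKM is the deposited level per gene length and library total. All 7 squamous epithelial markers were listed, and the summed level of the list was 197.8 FPKM in ZNF582 cells and 188.7 FPKM in control cells. The keratin KRT17 was the 1 of these 7 markers past the 2-fold rule, at 28.2 FPKM in ZNF582 cells and 7.84 in control cells, 3.89-fold higher (3.56 to 4.24). The cadherin CDH1 stood at 22.2 FPKM in ZNF582 cells and 35.0 in control cells, DSP at 56.0 in ZNF582 cells and 42.6 in control cells, and TP63 at 2.40 in ZNF582 cells and 1.85 in control cells. Of the others KRT5 was at 17.3 FPKM in ZNF582 cells and 10.3 in control cells, EPCAM at 71.4 in ZNF582 cells and 91.0 in control cells, and KRT14 near 0, at 0.366 in ZNF582 cells and 0.163 in control cells. Their part in the results below was not tested. Markers of other cell types were low, with summed levels in the ZNF582 and control libraries of 1.29 and 2.22 FPKM for 3 listed of 6 fibroblast genes, 0.979 and 0.718 FPKM for 2 of 5 immune genes, and 0.25 and 0.343 FPKM for 3 of 4 endothelial genes. On few counts, the fibroblast genes LUM (10 in ZNF582 cells, 36 in control cells) and PDGFRB (49 and 96) were called lower. The endothelial gene VWF (16 and 5) was called higher, and the other examined genes of these lists were called neither.

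TEAD factors bind a short DNA core, GGAATG, and the promoters that hold it are shown first because the target genes are usually read as its output. The 250 bases before the RefSeq start (GRCh38.p14) were searched for GGAATG on both strands and, because AP-1 often binds beside TEAD, for TGANTCA, which reads the same on both strands. A window was given for 7 of the 10 genes, 10 windows in all, and not for TEAD1, TEAD4 or CCN1. The TEAD core was found in 5 of these 10 windows, 1 each of YAP1, CCN2, ANKRD1, AMOTL2 and AXL, and in 11.9% of the 35116 windows of all genes. CCN2 had 3 cores, at positions -169, -104 and -95 counted from the start, and 3 or more were found in 29 of the 35116 windows. ANKRD1 had 2, at -220 and -128, and the only AP-1 match, at -195, a motif that 6.57% of all windows held. The whole CCN2 window (chr6:131951373-131951622, minus strand) is given first with its cores in capitals, followed by 30-base stretches around the cores of the other genes, also with the core in capitals. CATTCC is the core on the other strand.
CCN2 promoter: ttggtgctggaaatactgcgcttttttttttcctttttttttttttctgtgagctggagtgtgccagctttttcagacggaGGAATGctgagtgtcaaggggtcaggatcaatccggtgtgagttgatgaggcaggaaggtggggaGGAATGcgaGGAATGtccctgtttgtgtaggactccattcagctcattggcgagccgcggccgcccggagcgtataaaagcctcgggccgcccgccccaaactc
ANKRD1 core at -220 (chr10:90921290-90921319, minus strand): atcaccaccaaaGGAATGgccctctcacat
ANKRD1 core at -128 (chr10:90921198-90921227, minus strand): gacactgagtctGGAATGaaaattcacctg
YAP1 core at -162 (chr11:102110273-102110302, plus strand): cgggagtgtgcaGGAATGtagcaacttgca
AMOTL2 core at -69 (chr3:134374499-134374528, minus strand): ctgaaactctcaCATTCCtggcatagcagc
AXL core at -212 (chr19:41226531-41226560, plus strand): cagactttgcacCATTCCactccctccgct
The AMOTL2 and AXL cores each lie in 1 of 2 annotated windows of the gene. The AXL window with the core belongs to a start 7552 bases inside the deposited gene span, and that of AMOTL2 to a start 1032 bases inside, while the windows nearest the start of either span hold no core. The RefSeq start of ANKRD1 lies 189 bases inside its span, so the core at -128 falls within that span. Both WWTR1 windows, which hold no core, belong to starts 78689 and 33441 bases inside, so the start of its span was not searched. A match is a run of letters and does not show binding.

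None of the 4 regulators passed the 2-fold rule, against 9.27% of all examined genes in either direction. Their median log2 fold was -0.03, and 0.14 over the 2 that overlap no other listed gene, TEAD1 and TEAD4. YAP1, the cofactor YAP, had 2907 counts in ZNF582 cells and 2721 in control cells, or 15.6 against 17.6 FPKM. With TMM factors its log2 fold was -0.06 (-0.14 to 0.01), an interval that includes 0, but by total counts it was -0.17, outside that interval. In bulk RNA, a lower level cannot be separated into fewer cells and less RNA per cell, here and for every gene below.

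WWTR1, which encodes TAZ, had the lowest log2 fold of the 10 genes. It had 2701 counts in ZNF582 cells and 3526 in control cells, or 11.8 against 18.6 FPKM. This gave a log2 fold of -0.54 (-0.61 to -0.47), that is 1.46-fold lower (1.38 to 1.53), outside counting error but short of 2-fold, and 84.5% of all examined genes had a higher value. The ratio of the 2 cofactors to each other needs no scaling between libraries. YAP1 stood at 1.32 times the FPKM of WWTR1 in the ZNF582 library and at 0.947 times in the control library. This ratio was thus 1.39 times as high in the ZNF582 library (1.297 to 1.499). Which cofactor was the higher in control cells depends on the gene length used. Per kilobase of GENCODE 29 merged exons, YAP1 was at 25.95 and WWTR1 at 18.04 in ZNF582 cells. In control cells they were at 29.27 and 28.39. Summed, the FPKM of YAP1 and WWTR1 was 27.4 in ZNF582 cells and 36.1 in control cells.

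TEAD1, the more abundant of the 2 DNA-binding factors, had 5594 counts in ZNF582 cells and 4125 in control cells, or 15.1 against 13.4 FPKM. Its log2 fold was 0.28 (0.23 to 0.34), within the interquartile range of all examined genes, which ran from -0.33 to 0.31. TEAD4 had 266 counts in ZNF582 cells and 238 in control cells, or 3.46 against 3.73 FPKM. Its log2 fold was 0.00 (-0.25 to 0.26) with TMM factors and -0.11 by total counts, so its sign depended on the scaling.

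The other genes of the TEAD module are TEAD2, TEAD3 and the Vestigial-like cofactors, which bind TEAD in place of YAP and TAZ. TEAD3 had 586 counts in ZNF582 cells and 510 in control cells, a log2 fold of 0.04 (-0.13 to 0.22). TEAD2 had 185 counts in ZNF582 cells and 269 in control cells, a log2 fold of -0.70 (-0.97 to -0.42). TEAD1 held 48.4% of the summed TEAD FPKM of 31.2 in the ZNF582 library and 42.2% of 31.8 in the control library. The sums were thus close and the share of TEAD1 was higher in ZNF582 cells. The size of these sums and shares holds for the deposited gene lengths only. The length implied for TEAD1 was 20832 bases against 10279 of GENCODE 29 merged exons, and that for TEAD3 was 3123 against 3046. VGLL3, a Vestigial-like cofactor, was the 1 gene of this group past 2-fold, at 720 counts in ZNF582 cells and 312 in control cells. Its log2 fold of 1.05 (0.86 to 1.25) fell short of 2-fold when libraries were scaled by total counts. VGLL4, usually described as a repressor of TEAD, had 636 counts in ZNF582 cells and 727 in control cells, a log2 fold of -0.35 (-0.50 to -0.19). VGLL1, with 0 counts in ZNF582 cells and 5 in control cells, and VGLL2, with 10 in ZNF582 cells and 9 in control cells, were too low to examine. Of the 8 examined genes of this group 1 was higher and 0 lower, or 12.5% past the rule against 9.27% of all examined genes, and by total counts none was higher.

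**Figure D1:**
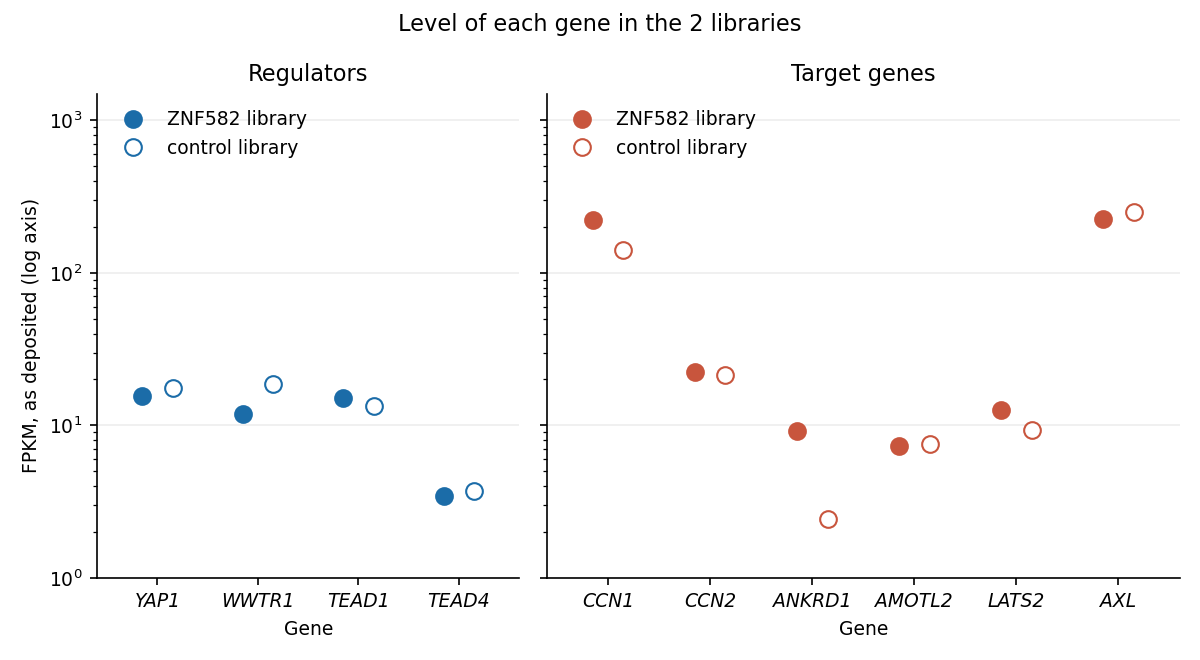
FPKM as deposited, on a log axis, of the 4 regulators (left) and the 6 target genes (right), with filled points for the ZNF582 library and open points for the control library, 1 library each. ANKRD1 shows the widest gap, at 9.23 FPKM in ZNF582 cells against 2.43 in control cells, followed by WWTR1 at 11.8 against 18.6 FPKM and CCN1 at 221 against 141 FPKM, while AXL, CCN2 and AMOTL2 lie close together.

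Among the 6 target genes 1 was called higher and 0 lower, or 16.7% past the rule, against 9.27% of all examined genes, and a share resting on 1 gene cannot be read as different from that background. Their median log2 fold was 0.37, with 5 above 0 and AXL below 0, and 0.76 over the 3 that overlap no other listed gene, CCN1, ANKRD1 and LATS2. The gene past the rule was ANKRD1, a nuclear and sarcomeric ankyrin-repeat protein used as a sensitive readout of YAP and TAZ. ANKRD1 had 325 counts in ZNF582 cells and 71 in control cells, or 9.23 against 2.43 FPKM. It was 4.11-fold higher in the ZNF582 library (3.17 to 5.39), a log2 fold of 2.04, and 1.03% of all examined genes had a higher value. At 2.43 FPKM in control cells it was also the least abundant of the 10 genes there, on 71 counts.

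The paired matricellular genes CCN1 (also CYR61) and CCN2 (also CTGF), secreted proteins that are the most used YAP and TAZ targets, differed in how far they stood from 0. CCN1 had 12353 counts in ZNF582 cells and 6549 in control cells, or 221 against 141 FPKM. That is 1.69-fold higher (1.64 to 1.74), a log2 fold of 0.76, well outside counting error and short of 2-fold. CCN2 had 930 counts in ZNF582 cells and 738 in control cells, or 22.3 against 21.4 FPKM. Its log2 fold was 0.18 (0.04 to 0.32), within the interquartile range of all examined genes.

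The same counts can be given as ratios between these targets, which need no scaling and follow from the folds above. CCN1 stood at 9.90 times the FPKM of CCN2 in the ZNF582 library and 6.61 times in the control library, a ratio 1.497 times as high (1.35 to 1.66). The ratio of ANKRD1 to CCN2 was 3.63 times as high in the ZNF582 library (2.76 to 4.78), at 0.413 against 0.114 by FPKM. The ratio of ANKRD1 to CCN1 was 2.43 times as high (1.87 to 3.14). These pairs were chosen after the values had been seen.

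AMOTL2 and LATS2 are targets that also restrain the pathway, AMOTL2 as an angiomotin-family protein that binds YAP at junctions and LATS2 as a kinase that phosphorylates YAP and TAZ. LATS2 had 1327 counts in ZNF582 cells and 808 in control cells, or 12.7 against 9.32 FPKM. It was 1.47-fold higher (1.35 to 1.61), a log2 fold of 0.56, and 13.3% of all examined genes had a higher value. AMOTL2 had 1913 counts in ZNF582 cells and 1626 in control cells, or 7.35 against 7.53 FPKM. Its log2 fold was 0.08 (-0.02 to 0.17) with TMM factors and -0.03 by total counts, so no direction can be given. LATS1, the partner kinase outside the 10 genes, had a log2 fold of 0.36 (0.29 to 0.44), on 3594 counts in ZNF582 cells and 2509 in control cells.

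AXL, a receptor tyrosine kinase linked to invasion and drug resistance in carcinomas, was the most abundant of the 10 genes in both libraries. It had 28330 counts in ZNF582 cells and 26357 in control cells, or 224 against 251 FPKM. Its log2 fold was -0.05 (-0.08 to -0.03). At this depth the counting interval excludes 1, yet the difference is 1.04-fold, and 90.4% of all examined genes lay at least as far from 0.

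**Figure D2:**
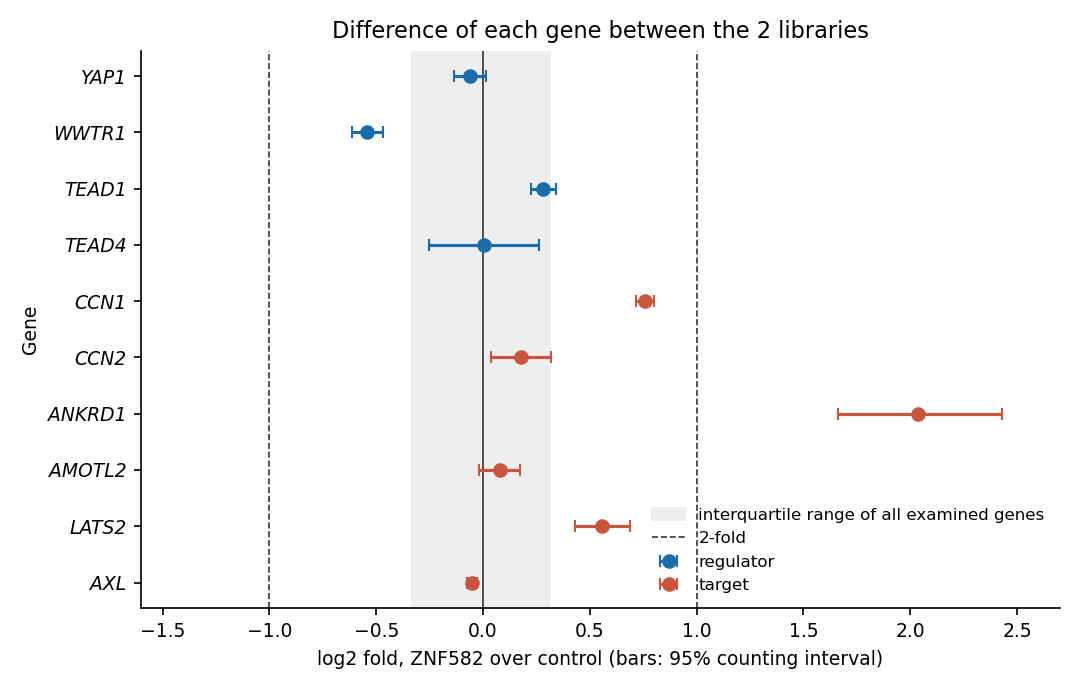
Log2 fold of the ZNF582 library over the control library for each gene, with bars for the 95% counting interval, the dashed lines at 2-fold and the grey band over the interquartile range of all examined genes (-0.33 to 0.31). ANKRD1 lies past the dashed line at 2.04, CCN1 and LATS2 lie between the band and that line, and WWTR1 is the 1 gene left of the band.

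Over the 10 genes together, 7 had an interval that excluded 1 with TMM factors, against 53.8% of all examined genes, and 2 were at least 1.5-fold apart, against 20.8%. The interval narrows with more counts, and the 53.8% includes genes down to a sum of 20 counts, below any of the 10 genes. These shares are therefore not at like depth. By log2 fold 6 lay in the interquartile range of all examined genes, namely YAP1, TEAD1, TEAD4, CCN2, AMOTL2 and AXL. The remaining 4 were ANKRD1, CCN1 and LATS2 above that range and WWTR1 below it. Summed over the 6 targets the level was 497 FPKM in ZNF582 cells and 433 FPKM in control cells, and without AXL 273 FPKM in ZNF582 cells and 182 FPKM in control cells, of which CCN1 alone held 81.1% in ZNF582 cells and 77.7% in control cells.

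**Figure D3:**
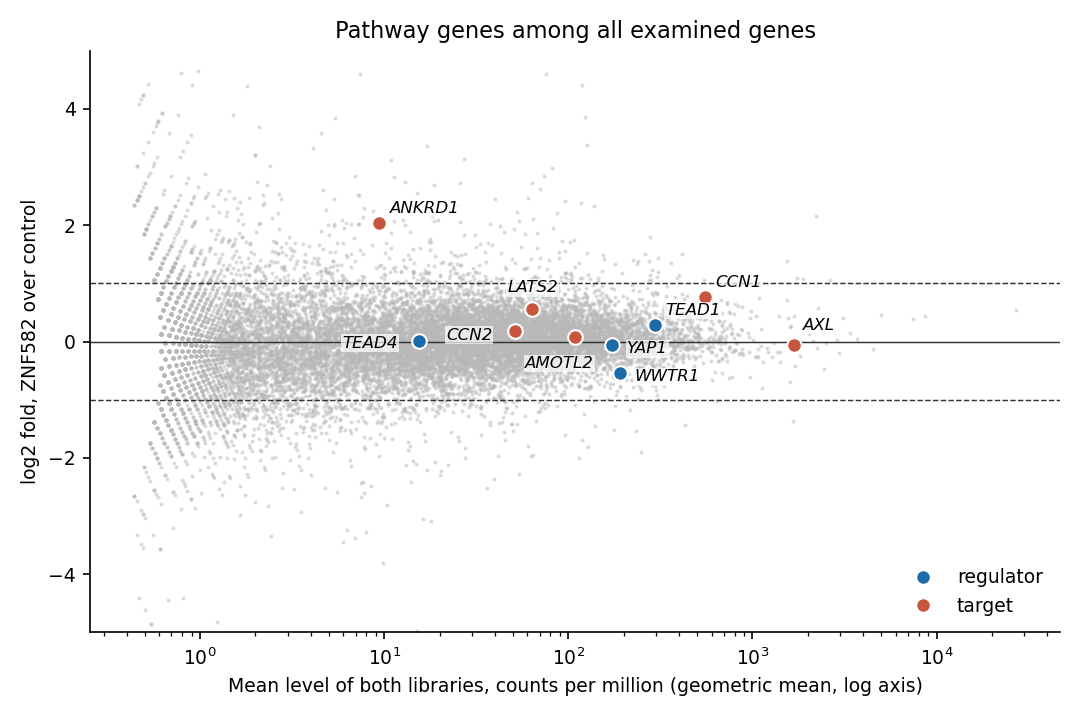
Log2 fold of the ZNF582 library over the control library (vertical axis) against the mean scaled level, as CPM (horizontal log axis) for all examined genes in grey, except 14 with a log2 fold beyond 5 in size, with regulators in blue and targets in red. ANKRD1 lies above the upper dashed line at 2.04, and the other 9 genes lie between the dashed 2-fold lines.

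Levels can be ordered between genes only per length, and the length used by the authors was not the same as the merged exons of GENCODE 29. Over 10996 genes the length implied by the deposited FPKM was 1.54 times that of merged exons at the median. By the deposited FPKM of the ZNF582 library the order was AXL, CCN1, CCN2, YAP1, TEAD1, LATS2, WWTR1, ANKRD1, AMOTL2 and TEAD4. Recomputed per kilobase of merged exons on the scale of FPKM, TEAD1 at 30.6, YAP1 at 25.9, WWTR1 at 18.0 and AMOTL2 at 18.0 moved up beside CCN2 at 22.4, while AXL at 309 and CCN1 at 283 stayed first and second, so the order in the middle is not settled. The difference of a gene between libraries does not depend on this length.

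Exons of 5 of the 10 genes overlap those of another listed gene, and the sources used here do not say whether counting used strand. The overlapping genes had few counts. WWTR1-AS1, antisense to WWTR1, had 29 counts in ZNF582 cells and 28 in control cells, and the pseudogene RPL39P5 within AMOTL2 had 21 in ZNF582 cells and 12 in control cells. The antisense genes over YAP1 (AP000942.2), CCN2 (AL133346.1) and AXL (AC011510.1) had at most 8 counts in either library. YAP1 lies on chromosome 11 from 102110461 to 102233423 on the plus strand and WWTR1 on chromosome 3 from 149517235 to 149736714 on the minus strand. ANKRD1 lies on chromosome 10 from 90912096 to 90921276 on the minus strand and overlaps no other listed gene. CCN1, on chromosome 1 from 85580761 to 85583962 on the plus strand, overlaps none either. These are the GRCh38 spans given in the deposited table.

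The rest of the Hippo pathway was then placed beside the 10 genes by named lists. The kinase core, which holds the kinases upstream of YAP and TAZ with their scaffolds and includes LATS2, had 20 examined genes. Of these 0 were higher and 0 lower, or 0% past the rule against 9.27% of all examined genes, at a median log2 fold of -0.11. With so few genes this share cannot be read as different from that background. STK3 and STK4, the Hippo kinases themselves, stood at -0.14 (-0.27 to -0.02) and -0.17 (-0.31 to -0.04), and NF2, the tumour suppressor that activates LATS at the membrane, at -0.18 (-0.27 to -0.09). The farthest below 0 was MAP4K2, a kinase that can act in parallel to STK3 and STK4, at -0.90 (-1.12 to -0.68) and past 2-fold when scaled by total counts. LATS2 at 0.56 was the farthest above 0 in that list.

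Upstream and junctional regulators, with AMOTL2 among them, numbered 26 examined genes, of which 1 was higher and 2 lower, or 11.5% past the rule against 9.27% of all examined genes, at a median of -0.07. The genes past the rule were RASSF1, RASSF4 and RASSF2, while RASSF3 at 0.01, RASSF5 at 0.18 and RASSF6 at -0.45 did not pass it. RASSF1, a scaffold of the Hippo kinases, had 384 counts in ZNF582 cells and 123 in control cells and was 2.80-fold higher (2.28 to 3.46), with exonic overlap. RASSF4 had 47 counts in ZNF582 cells and 157 in control cells, a log2 fold of -1.90 (-2.40 to -1.42), with exonic overlap as well, and RASSF2 had 22 in ZNF582 cells and 49 in control cells, a log2 fold of -1.31 (-2.11 to -0.56). AJUBA, a LIM protein that restrains LATS at junctions and is also a described target, had 1499 counts in ZNF582 cells and 2289 in control cells, a log2 fold of -0.77 (-0.86 to -0.67).

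A signature of 22 genes described as conserved YAP and TAZ targets in human tumours includes the 6 targets above. Of its 21 examined genes 3 were higher and 0 lower, or 14.3% past the rule against 9.27% of all examined genes, at a median of 0.23 that was 0.37 without genes with exonic overlap. Without the 6 targets the other 15 had 2 higher and 0 lower, or 13.3% past the rule against 9.27% of all examined genes. A share resting on 2 genes cannot be read as different from that background. The median of these 15 was 0.23, with 9 above 0 and 6 below 0. GADD45A, a stress sensor that p53 also controls, had 4547 counts in ZNF582 cells and 785 in control cells and was 5.20-fold higher (4.82 to 5.61). IGFBP3, an insulin-like growth factor binding protein, was 2.75-fold higher (1.51 to 5.31) on only 46 counts in ZNF582 cells and 15 in control cells. Abundant members such as MYOF at 0.15, F3 at 0.41 and NT5E at -0.37 did not pass the rule.

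Another list of 24 described targets, none of which belongs to the 10 genes, had 20 examined members, of which 2 were higher and 1 lower, or 15% past the rule against 9.27% of all examined genes, at a median of 0.11. The higher genes were VGLL3, given above, and EDN1, the endothelin precursor, at 142 counts in ZNF582 cells and 52 in control cells, or 2.45-fold higher (1.77 to 3.44). The lower gene was BIRC5, which encodes survivin and varies with cell division, at 329 counts in ZNF582 cells and 901 in control cells, a log2 fold of -1.61 (-1.80 to -1.43). TGM2, transglutaminase 2, and FSCN1, the actin bundler fascin, lay on the lower side at -0.62 and -0.73, and CCND1, cyclin D1, at 0.04. Over all pathway genes outside the 10, each counted once, 5 of 79 examined were higher and 3 lower, or 10.1% past the rule against 9.27% of all examined genes, at a median of 0.01. Of the genes named from these lists, TEAD2, VGLL4, LATS1, STK3, RASSF3, TGFB2, TGM2 and CCND1 also share exonic bases with another listed gene. Their counts are uncertain in the same way.

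**Figure D4:**
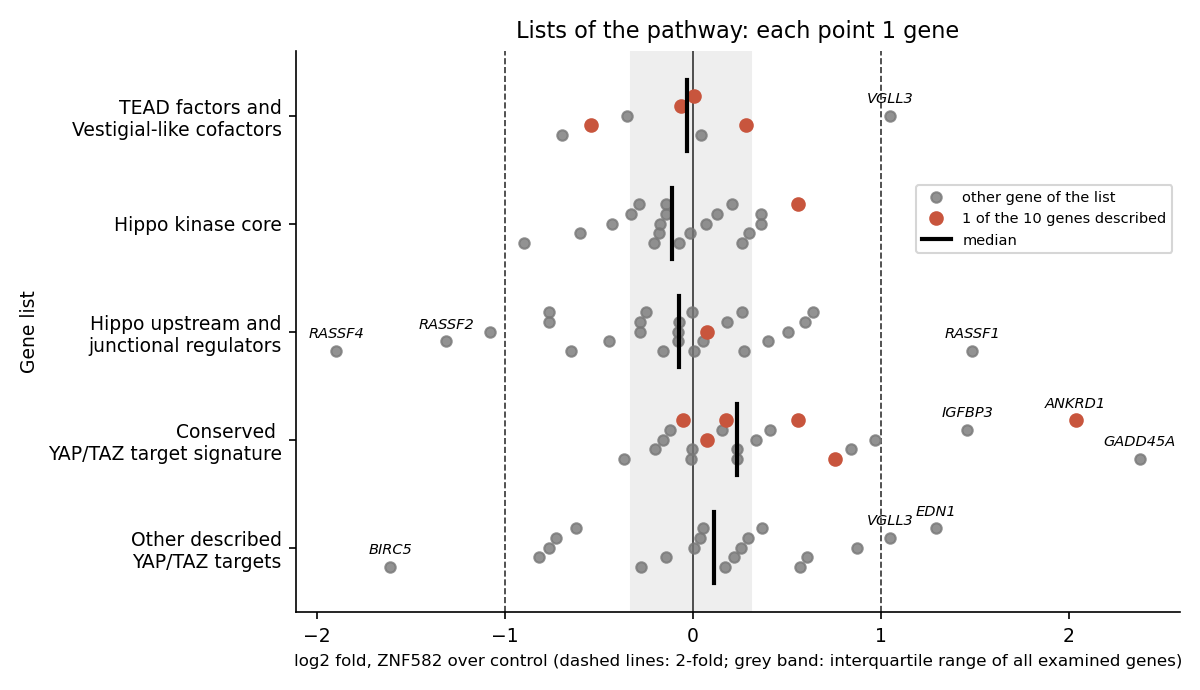
Log2 fold of the ZNF582 library over the control library for each examined gene of 5 pathway lists, with the genes among the 10 in red, other genes in grey, a black bar at the median, dashed lines at 2-fold and names on genes past the rule. The unnamed point beyond the lower line is AMOT, an angiomotin at 10 counts in ZNF582 cells and 19 in control cells, whose interval includes 1. The medians run from -0.11 in the kinase core to 0.23 in the conserved signature, all within the grey band of the interquartile range of all examined genes.

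The scaling of the libraries set the sign of 2 of the 10 genes and the call of none. Scaled by total counts alone the median of all examined genes was -0.12, and 34.0% of the genes past the rule were higher, against 45.9% with TMM factors. Each of the 10 genes shifted down by about the same amount, and the medians of the kinase core and of the upstream regulators were then -0.22 and -0.19. ANKRD1 ranged from 1.58 to 2.04 over all settings, CCN1 from 0.64 to 0.77, LATS2 from 0.41 to 0.57 and WWTR1 from -0.65 to -0.53. TEAD4, from -0.11 to 0.01, and AMOTL2, from -0.03 to 0.09, lay on both sides of 0.

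**Figure D5:**
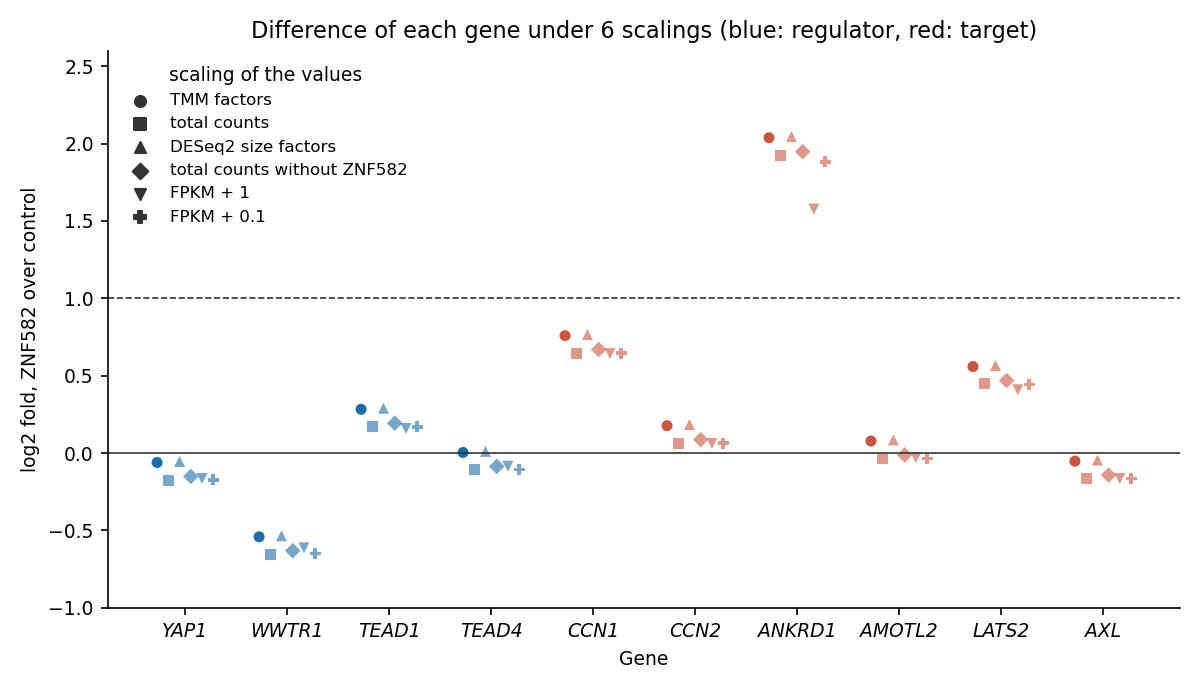
Log2 fold of the ZNF582 library over the control library for each of the 10 genes under 6 scalings, with regulators in blue, targets in red and the dashed line at 2-fold. ANKRD1 stays above the line in each scaling, lowest at 1.58 from log2(FPKM + 1), and the points of TEAD4 and AMOTL2 lie on both sides of 0.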

How the data were processed

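Per the labels' protocols, total RNA was made into libraries with a VAHTS Universal V6 kit, and per the submitters' processing notes HISAT2 2.0.4, StringTie 1.3.0 and GRCh38 were used. The sources used here do not give the counting program, its annotation or its use of strand, so the whole-number counts that the authors deposited were handled as estimated counts. The authors deposited FPKM beside them, scaled by total counts. 1 record broken over 2 lines was rejoined.

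Library totals were multiplied by TMM factors of 0.962 (ZNF582) and 1.04 (control) from edgeR 4.0.16, used for scaling only, after a filter of at least 20 counts over both libraries. DESeq2 1.42.0 gave alternative size factors. Fold intervals are exact 95% Clopper-Pearson intervals conditional on the sum of both counts, and intervals of ratios between genes use the normal approximation to log counts. Intervals cover counting error only, because each group had 1 library. Reads carry no molecular identifiers, so repeated reads of 1 molecule could make even these intervals too narrow. Exons came from GENCODE 29, where 25271 of 25534 identifiers were found, and promoters from RefSeq.

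All 10 genes are reported, with every pathway-list gene past the rule, all TEAD and Vestigial-like genes, and a few others chosen after their values were seen. The genes and lists were chosen with earlier results of these data known. Pathway genes not among the 25534 were not analysed here.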

Additional observations from a re-analysis of the deposited data

How the results depend on the processing

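Counts and medians were recomputed by total counts, with DESeq2 size factors, by total counts without ZNF582, from log2(FPKM + 1) and log2(FPKM + 0.1) with the fold alone, without a filter, with at least 100 counts, with a 1.5-fold rule, and without genes with exonic overlap. ANKRD1, the only called gene of the 10, kept its sign, while TEAD4 and AMOTL2, which were not called, changed sign. Of the 182 recomputed counts and medians 31 moved by more than a tolerance, which was 1.5 times the value for a count and, for a median, the range between the medians of its genes' interval bounds. The other 151 stayed within it, though some of them changed too. By total counts the median of the kinase core was -0.221 with 1 lower gene, that of upstream regulators -0.187, the TEAD and Vestigial-like list had 0 higher and the other targets 1 higher. Without ZNF582 counts these were -0.199 for the core median, 0 higher and 1 higher. From log2(FPKM + 1) the TEAD list had 0 higher, upstream regulators 0 higher and 0 lower, and other targets 0 higher. From log2(FPKM + 0.1) the TEAD list had 0 higher, the core median was -0.218, upstream regulators had 1 lower and other targets 1 higher. With at least 100 counts upstream regulators had 1 lower. At 1.5-fold there were 2 higher targets, 1 lower TEAD-list gene, 2 lower core genes, 3 higher and 5 lower upstream regulators, 5 higher signature genes, and 4 higher and 5 lower other targets. Without overlapping genes the medians were 0.143 for the 4 regulators (2 left), 0.759 for the targets (3 left), 0.163 for the TEAD list and 0.372 for the signature, with 0 higher and 1 lower upstream regulator. These differences follow from the construction of the alternatives: a shared shift, a pseudocount, another threshold or fewer genes. All genes past 2-fold numbered 1545, but 311 from log2(FPKM + 1) and 3473 at 1.5-fold. No paired analysis was possible because each group had 1 library. The depth limits TEAD4 and ANKRD1 most, at 238 and 71 control counts.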
